A study of Mus musculus with 14 samples.

Results

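The small leucine-rich proteoglycans (SLRPs) measured here were decorin (*Dcn*), biglycan (*Bgn*), asporin (*Aspn*), fibromodulin (*Fmod*), lumican (*Lum*), prolargin (*Prelp*), keratocan (*Kera*), osteomodulin (*Omd*), epiphycan (*Epyc*) and osteoglycin (*Ogn*). They were taken by gene symbol, as the secreted collagen-binding members of the family, and make up 10 of the 55487 genes counted. All 10 passed the filter on low counts, which kept 16915 genes with more than 1 CPM (the usual depth-scaled count, here by the library total alone) in at least 3 libraries. The filter used this plain scale, whereas the CPM given below are also divided by TMM factors, so that a library can lie on the other side of 1. On the plain scale *Kera* exceeded the minimum in 1 of 3 db/+, 3 of 3 db/db, 1 of 4 Con+Veh and 1 of 4 STZ-HFD libraries, and *Epyc* in 2 of 3, 3 of 3, 0 of 4 and 1 of 4. Both had levels near the minimum of the filter.

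RNA was sequenced from tail intervertebral discs (IVDs) of 14 male mice, with 5 discs pooled per mouse, so annulus fibrosus, nucleus pulposus and end plate were not separated. The db/db mice (n = 3) were homozygous for the *Lepr* db mutation of the leptin receptor and the db/+ mice (n = 3) were their heterozygous littermates, so the controls also carried 1 mutant allele, and neither group was treated. Both were 3 months old. STZ-HFD mice (n = 4) were C57BL/6J mice that entered the study at 12 weeks of age, ate a high-fat diet for 4 to 6 weeks, received streptozotocin (STZ, a toxin of pancreatic β-cells) at 100 mg/kg and stayed on the diet for 12 more weeks. Con+Veh mice (n = 4) were C57BL/6J mice of the same schedule on chow with vehicle, and the labels call them wild-type. The labels give the diet as 80% of calories from fat, and the study's methods give another value. Each diabetic group was compared with its own control, since cohort, age and schedule differ between the models and cannot be told apart from them.

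SLRPs are small core proteins built of leucine-rich repeats that fold into a curved solenoid. They bind collagen fibrils and govern fibril width and spacing, and many also bind growth factors of the TGF-β family or receptors of innate immunity. Decorin, biglycan and asporin form the first class, of which decorin and biglycan carry chondroitin or dermatan sulfate chains and asporin carries none. Fibromodulin, lumican, prolargin, keratocan and osteomodulin form the second class, whose members mostly carry keratan sulfate or sulfated tyrosines. Epiphycan and osteoglycin belong to the third class. In the disc they are constituents of the collagen-rich annulus fibrosus and the end plate, and fragments of them appear in degenerating discs.

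Of the 10 members, 9 lie in 3 clusters of the genome. On the GRCm38 build, chromosome 13 holds *Aspn* (ENSMUSG00000021388, 49544443 to 49567565), *Omd* (ENSMUSG00000048368, 49582462 to 49592822) and *Ogn* (ENSMUSG00000021390, 49608046 to 49624501) on the forward strand within 80.1 kb. Their relative *Ecm2* (49504810 to 49532789) lies beside *Aspn*, and all 3 members overlap the span of *Cenpp* on the opposite strand. Chromosome 10 holds *Dcn* (ENSMUSG00000019929, 97479609 to 97518143), *Lum* (ENSMUSG00000036446, 97565128 to 97572703), *Kera* (ENSMUSG00000019932, 97606879 to 97613692) and *Epyc* (ENSMUSG00000019936, 97644068 to 97682454) within 203 kb. Chromosome 1 holds *Prelp* (ENSMUSG00000041577, 133910304 to 133921414) and *Fmod* (ENSMUSG00000041559, 134037254 to 134048277) within 138 kb. *Bgn* (ENSMUSG00000031375, 73483602 to 73495933) stands alone on chromosome X. Exons of *Epyc* share 1356 bases with *Gm10754* and those of *Prelp* share 350 with *Gm15851*, both on the opposite strand. The study does not state whether counting used the strand, so reads of these pairs could be mixed.

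The chromosome 13 neighbours are shown because *Ogn* and *Aspn* were the members called in db/db discs, and the chromosome 1 neighbours because both were called in STZ-HFD discs. Each line is the stretch of 250 bases before the RefSeq start (GRCm38.p6), read 5′ to 3′ on the strand of the gene. RefSeq windows matched 8 of the 10 members. The windows are chr13:49544193-49544442 for *Aspn*, chr13:49582212-49582461 for *Omd*, chr13:49607765-49608014 for *Ogn* (forward strand), chr1:133921402-133921651 for *Prelp* (reverse strand) and chr1:134037004-134037253 for *Fmod* (forward strand). Capitals mark matches on either strand to 4 motifs, which were the TATA box (searched as TATAAA), the CCAAT box (searched as CCAAT), the GC box (searched as GGGCGG) and a motif of SOX factors (searched as ACAAAG).
Aspn: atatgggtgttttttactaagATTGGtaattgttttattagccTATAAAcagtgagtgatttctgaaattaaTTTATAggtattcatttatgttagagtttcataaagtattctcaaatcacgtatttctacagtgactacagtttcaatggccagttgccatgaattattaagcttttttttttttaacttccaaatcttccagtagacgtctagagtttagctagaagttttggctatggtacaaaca
Omd: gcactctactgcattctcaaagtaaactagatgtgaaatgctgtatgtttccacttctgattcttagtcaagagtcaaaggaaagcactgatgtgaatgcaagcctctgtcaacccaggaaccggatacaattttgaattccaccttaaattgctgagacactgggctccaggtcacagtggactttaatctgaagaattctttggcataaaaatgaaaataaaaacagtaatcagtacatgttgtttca
Ogn: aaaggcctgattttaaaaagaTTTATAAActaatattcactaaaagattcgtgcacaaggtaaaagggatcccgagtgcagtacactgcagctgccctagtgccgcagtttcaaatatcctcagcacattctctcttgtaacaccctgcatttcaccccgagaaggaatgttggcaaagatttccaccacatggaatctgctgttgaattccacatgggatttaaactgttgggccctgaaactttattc
Prelp: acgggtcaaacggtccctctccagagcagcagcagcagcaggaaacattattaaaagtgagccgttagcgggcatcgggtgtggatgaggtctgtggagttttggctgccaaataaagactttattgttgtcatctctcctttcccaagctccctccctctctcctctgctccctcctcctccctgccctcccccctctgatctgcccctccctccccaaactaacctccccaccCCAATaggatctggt
Fmod: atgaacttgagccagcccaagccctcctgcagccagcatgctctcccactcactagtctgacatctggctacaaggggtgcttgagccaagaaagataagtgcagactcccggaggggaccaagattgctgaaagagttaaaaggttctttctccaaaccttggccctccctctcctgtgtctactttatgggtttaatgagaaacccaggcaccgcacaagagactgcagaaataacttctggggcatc

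The 3 chromosome 13 windows held neither the GC box nor the SOX motif. *Ogn* had TATAAA 227 to 222 bases before the start and, overlapping it on the other strand, 229 to 224 bases before. *Aspn* had TATAAA at 207 to 202 and, on the other strand, at 178 to 173, with a CCAAT match on the other strand at 229 to 225. *Prelp* had CCAAT at 15 to 11, and *Omd* and *Fmod* held none of the 4 motifs. Of all 32851 windows of this length, 12.4% held the TATA box, 33.8% the CCAAT box, 32.7% the GC box and 16.5% the SOX motif. The GC content of the windows was 30% in *Aspn*, 38.4% in *Omd*, 42.0% in *Ogn*, 51.2% in *Fmod* and 55.6% in *Prelp*, against a median of 52.4% over all windows. These matches are descriptions of the sequence, and no binding was measured.

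Libraries held 16076908 to 58943169 counts in all. At these depths 3 counts correspond to 0.0428 to 0.162 CPM, a floor that covers counting error only. Ribosomal RNA took 28.1% to 39.7% of the counts in the db groups and 44.4% to 60.2% in the other cohort. The test weights libraries by their scatter. Con+Veh replicate 3 had the highest weight (3.05) and Con+Veh replicate 1 the lowest (0.275). Each library is a separate mouse. Nucleus pulposus and notochord markers summed to 630.0 to 4401 CPM in db/+, 955 to 1273 in db/db, 1990.0 to 5707 in Con+Veh and 3527 to 7744 in STZ-HFD, with *Noto* at 0 in the db/db libraries and *Shh* at 0 in the db/+ libraries. *Car3* was the largest part of this sum, with means of 1850 CPM in db/+, 896 in db/db, 3014 in Con+Veh and 5202 in STZ-HFD. Means of *T* were 157, 34.2, 167 and 116 CPM in the same order, and those of *Krt19* 79.9, 13.7, 74.7 and 66.9. From Con+Veh to STZ-HFD the means of *Krt8* and *Cd24a* were also lower, and *Krt18* was at 4.52 and 4.88. Of the 6 markers tested, 0 were called in either model. Transcripts of a whole disc were counted, so fewer cells of a type and less RNA per cell cannot be told apart.

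Per length of exon, *Fmod*, *Bgn*, *Prelp* and *Dcn* made up most of the summed level of the 10 members in every library (plot of shares), a sum that leaves out *Chad* and the other SLRPs described further on. In db/+ discs *Fmod* was at 441 ± 107 CPM per kb (SD, n = 3), *Bgn* at 342 ± 31.3, *Prelp* at 264 ± 85.8 and *Dcn* at 67.0 ± 15.2. *Fmod* stood above *Bgn*, and *Bgn* above *Prelp*, in 3 of 3 libraries, but the means differed by less than the larger SD. *Prelp* exceeded *Dcn* beyond the spread. The place of *Bgn* rests on the length used, since its exons cover 6099 bases and its longest transcript 2666. For *Fmod* these lengths are 3306 and 3120, so the longest transcript would raise *Bgn* against *Fmod*. Without division by length, *Bgn* (2085 ± 191 CPM) stood above *Fmod* (1457 ± 354 CPM) in db/+. *Lum* (8.0 ± 2.67), *Aspn* (7.40 ± 1.63) and *Ogn* (6.28 ± 1.58) followed without separating from each other. Below them stood *Omd* (3.74 ± 1.36), *Epyc* (0.41 ± 0.0921) and *Kera* (0.319 ± 0.24), the cornea proteoglycan.

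In db/db discs *Fmod* (454 ± 220 CPM per kb), *Bgn* (426 ± 193) and *Prelp* (405 ± 211) again led without separating on this length. *Dcn* followed at 132 ± 54.5. Without division by length *Bgn* was at 2596 ± 1180 CPM and *Fmod* at 1502 ± 727 CPM. *Aspn* (24.4 ± 15.6) and *Ogn* (19.8 ± 7.95) stood above *Lum* (16.5 ± 6.32), within the spread. In Con+Veh discs *Dcn* (136 ± 58.8), *Bgn* (136 ± 47.2), *Fmod* (133 ± 48.6) and *Prelp* (97.2 ± 26.4) were within the spread of one another, step by step. This too holds for the length of all exons only. Division by the longest transcript (2666 bases for *Bgn*, 4692 for *Dcn*) would raise *Bgn* against *Dcn*, *Fmod* and *Prelp*. In STZ-HFD discs *Bgn* led at 89.4 ± 18.7 and exceeded *Fmod* (53.0 ± 15.8) in 4 of 4 libraries and beyond the spread, with *Dcn* at 50.9 ± 9.12 and *Prelp* at 39.0 ± 8.33. Summed over the 10 members, the level per length was 1140 ± 183 in db/+ and 1488 ± 594 in db/db (n = 3 each), and 548 ± 184 in Con+Veh and 266 ± 48.6 in STZ-HFD (n = 4 each).

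**Figure D1:**
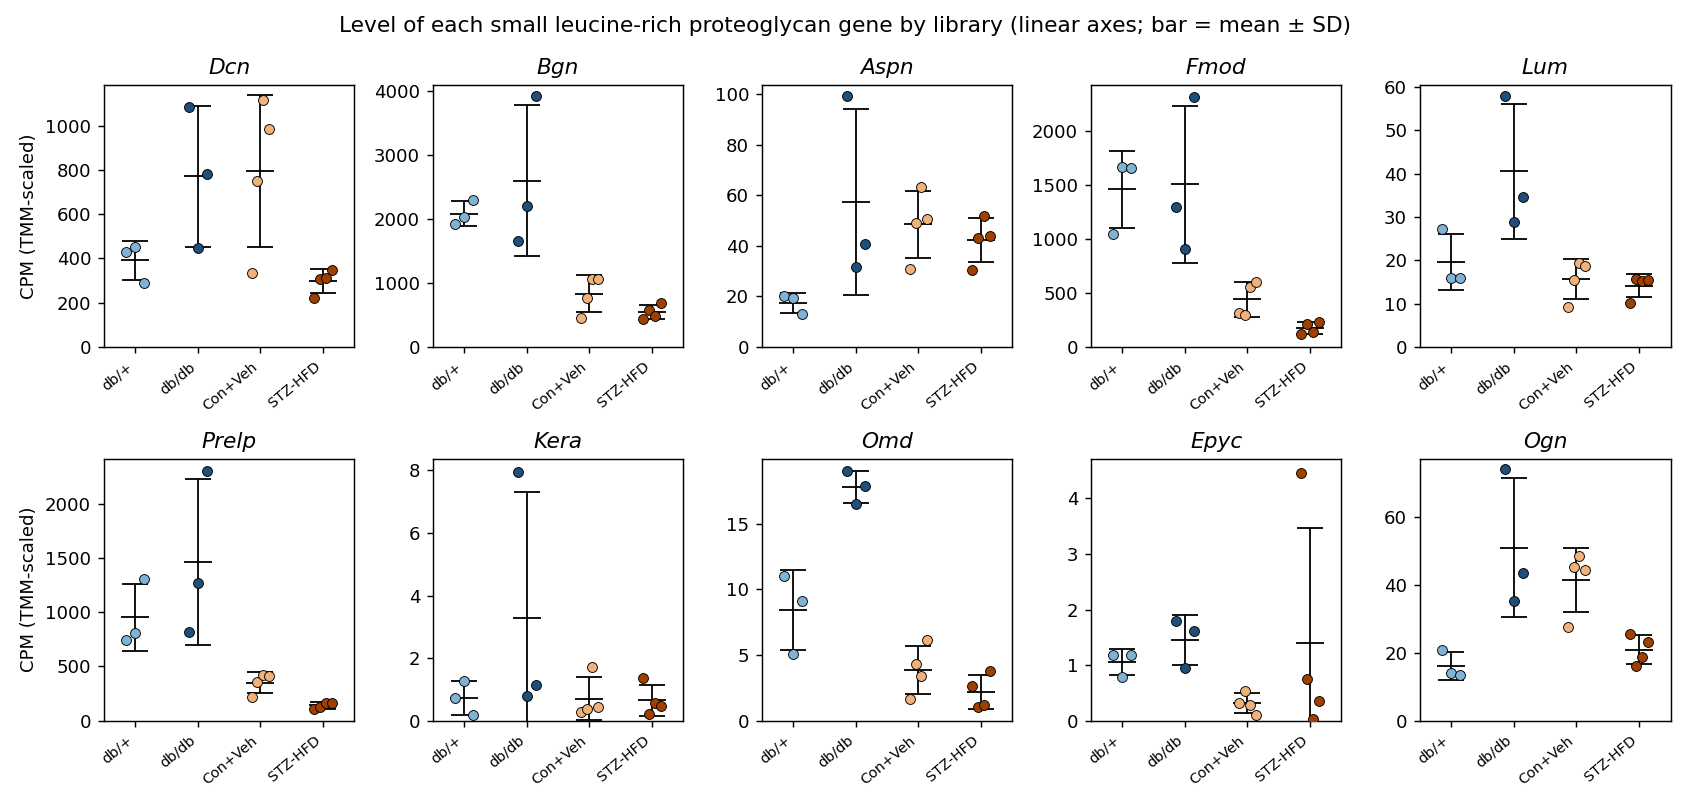
CPM (scaled by TMM factors) of each member in the 14 libraries, 1 panel per gene on its own linear axis from 0, with points for mice and bars for mean ± SD. *Ogn*, *Aspn*, *Omd* and *Lum* were higher in each db/db library than in any db/+ library, while *Fmod*, *Prelp* and *Ogn* were lower in each STZ-HFD library than in any Con+Veh library.

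In db/db discs, 2 of the 10 members were called higher than in db/+ and 0 lower. They were *Ogn*, a protein first isolated from bone, and *Aspn*, a collagen-binding protein that restrains TGF-β. Calls required a Benjamini-Hochberg (BH) adjusted p under 0.05 in limma over the 16915 genes, with a log2 fold change of 1 or more in either direction. By this rule 1.66% of all genes tested were called, 1.23% higher and 0.432% lower. At an unadjusted p under 0.05, limma counted 5 of the 10 members and 21.1% of all genes. The db/db and db/+ libraries did not overlap, with db/db higher, for 4 members, and the same held for 14.1% of all genes. The median log2 fold change was 0.95 over the members and -0.04 over all genes.

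*Ogn* was at 20.8, 14.1 and 13.4 CPM in the db/+ libraries (replicates 1 to 3) and at 73.9, 35.1 and 43.4 CPM in the db/db libraries. Each db/db library exceeded each db/+ library. *Ogn* rose by a log2 fold change of 1.61 (SE 0.26, limma BH-adjusted p = 0.0125), 3.04-fold on the fitted scale. *Aspn* was at 20.0, 19.2 and 13 CPM in db/+ and at 99.4, 31.8 and 40.8 CPM in db/db. The groups did not overlap, and db/db replicate 1 stood highest. *Aspn* rose by a log2 fold change of 1.53 (SE 0.33, limma BH-adjusted p = 0.0304).

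*Omd*, the third gene of the chromosome 13 cluster and a keratan sulfate proteoglycan of mineralised tissue, was at 11, 5.07 and 9.14 CPM in db/+ and at 19.0, 16.5 and 17.9 CPM in db/db. The groups did not overlap, but the log2 fold change of 1.20 (SE 0.31, limma BH-adjusted p = 0.0555) did not pass the test. *Omd* was called in 2 of 14 fits without 1 library and in 5 of 14 other settings. *Lum*, which limits the sideways growth of fibrils, was at 27.1, 15.8 and 15.8 CPM in db/+ and at 58.0, 28.8 and 34.7 CPM in db/db. Again the groups did not overlap and the log2 fold change of 1.03 (SE 0.27, limma BH-adjusted p = 0.0568) did not pass. *Lum* was called in 1 of 14 fits without 1 library and in 2 of 14 other settings.

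The abundant members were not called in db/db discs. *Dcn*, the archetype of the family, was at 431, 453 and 289 CPM in db/+ and at 1083, 446 and 782 CPM in db/db. The groups overlapped, and the log2 fold change was 0.88 with a 95% confidence interval from 0.17 to 1.58 (limma BH-adjusted p = 0.147). *Bgn*, decorin's closest relative, was at 1928, 2029 and 2297 CPM in db/+ and at 1658, 2209 and 3921 CPM in db/db. Its values overlapped and its interval ran from -0.47 to 0.95. *Prelp*, which links collagen to basement membranes, was at 747, 806 and 1311 CPM in db/+ and at 816, 1270 and 2308 CPM in db/db, with an interval from -0.16 to 1.31. *Fmod*, which takes part in collagen cross-linking, was at 1048, 1665 and 1658 CPM in db/+ and at 1289, 904 and 2312 CPM in db/db. For *Fmod* the interval from -0.84 to 0.78 covered both directions.

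*Epyc*, a cartilage growth-zone proteoglycan, was at 1.18, 0.778 and 1.19 CPM in db/+ and at 1.80, 0.942 and 1.61 CPM in db/db, with overlapping groups. *Kera* was at 0.714, 1.28 and 0.186 CPM in db/+ and at 7.94, 0.80 and 1.14 CPM in db/db. Its db/db replicate 1 held 507 counts against 12 to 74 in the other libraries of this cohort, and its interval of the log2 fold change ran from -0.18 to 3.52. *Kera* was called with a score of the skeletal muscle markers as a covariate, at 4.98 (limma BH-adjusted p = 0.0284). The measured means, 0.727 CPM in db/+ and 3.29 ± 4.02 in db/db, show no change of that size.

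In db/db discs the log2 fold change of all genes fell with the GC content of their transcripts, and the members are spread along that axis (plot against GC content). Spearman's rho was -0.428 across 16899 genes, which are not independent replicates, and -0.60 across the 10 members. *Aspn* (34.3% GC), *Omd* (36.1%), *Ogn* (36.3%), *Epyc* (36.5%) and *Dcn* (37.4%) lie in the lowest of 20 bins, whose median was 0.40. Relative to that median, *Ogn* stood at 1.21, *Aspn* at 1.13 and *Omd* at 0.80. With the GC trend of each library removed, *Ogn* was at 1.20 (adjusted p = 0.0512) and *Aspn* at 1.12 (limma BH-adjusted p = 0.162), and 0 members were called, with 5 at an unadjusted p under 0.05, against 0.934% and 16.2% of all genes in that fit. In STZ-HFD rho was -0.0807 across all genes.

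**Figure D2:**
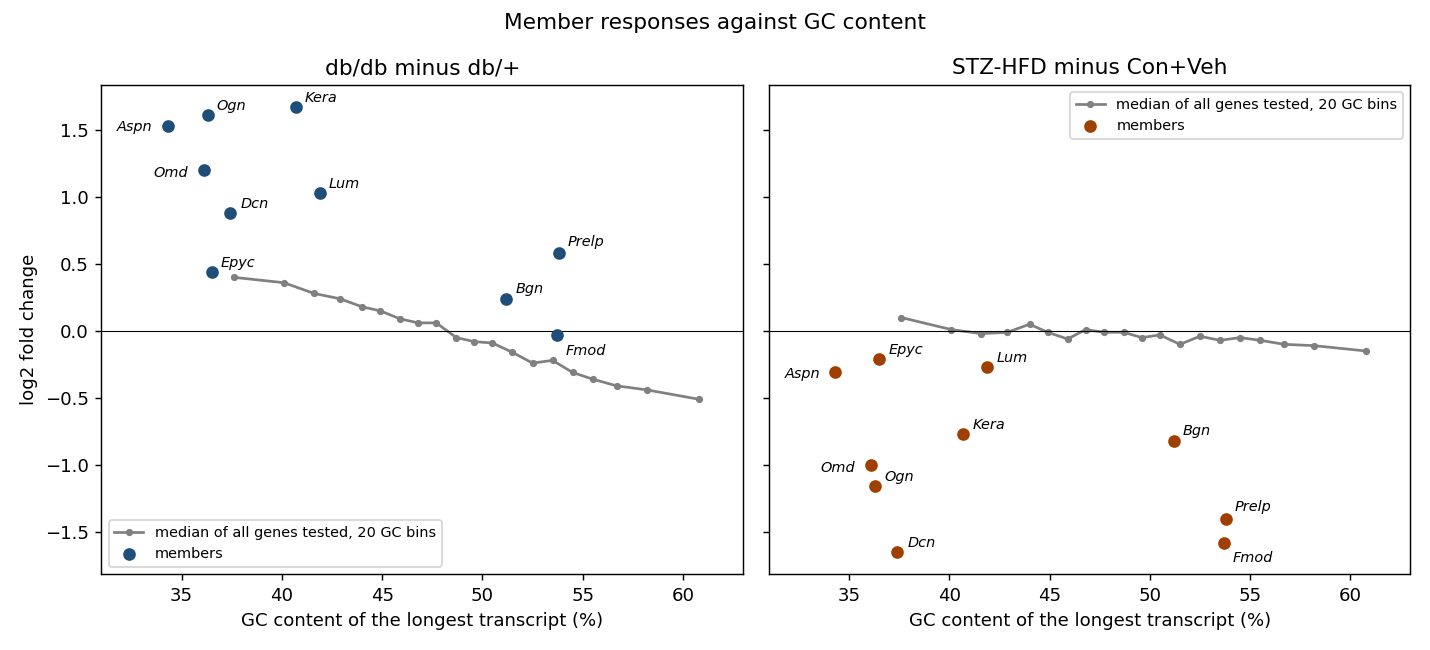
Log2 fold change of each member (points) against the GC content of its longest transcript in percent, beside the median of all genes tested in 20 bins of GC content (grey line), for db/db minus db/+ (left) and STZ-HFD minus Con+Veh (right). In db/db the grey line descends from 0.40 to -0.51, and *Ogn* (1.61) and *Aspn* (1.53) lie above it. In STZ-HFD it stays within 0.10 and -0.15, and the 4 members called lie from -1.65 to -1.16.

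Adipocyte markers moved in the same comparison. Of 8 markers, 4 (*Adipoq*, *Plin1*, *Retn* and *Pck1*) were called higher, the summed level was 180 to 380 CPM in db/+ and 297 to 558 CPM in db/db, and no marker was at 0. *Cfd*, with the highest mean of them, went the other way, at 214 ± 92.9 CPM in db/+ and 141 ± 48.3 in db/db. Its log2 fold change was -0.60 (limma BH-adjusted p = 0.35). *Cidec* (1.33), *Lep* (2.07) and *Lipe* (0.98) were positive and not called. With the adipocyte score as a covariate the log2 fold change was 1.20 for *Ogn* (adjusted p = 0.527) and 0.97 for *Aspn* (adjusted p = 0.713), and limma called 0 members and 0 of the 16915 genes, with 1 member and 1233 genes at an unadjusted p under 0.05. The part of fat tissue in these results was not tested otherwise. The 10 skeletal muscle markers summed to 4828 to 9694 CPM in db/+ and 3095 to 5165 CPM in db/db, where 1 (*Myh1*) was called lower, and the 8 cartilage markers to 13397 to 23304 CPM and 5427 to 13908 CPM. The 7 osteoblast and osteocyte markers summed to 1317 to 1872 CPM in db/+ and 836 to 968 CPM in db/db, and the 6 endothelium markers, of which *Tek* was called higher, to 137 to 200 CPM and 231 to 254 CPM, both without overlap. With the muscle score as a covariate *Ogn* stood at 1.88 and *Aspn* at 2.27, both called among 254 genes, and the part of cartilage, bone and endothelium was not tested. By the quasi-likelihood test of edgeR, 0 members and 0 genes in all were called, with 6 members and 11.2% of all genes at an unadjusted p under 0.05. DESeq2 called *Ogn* and *Aspn* among 1.25% of all genes. *Ogn* was no longer called without db/+ replicate 2 (1.53, limma BH-adjusted p = 0.0541). *Aspn* was not called without db/db replicate 1 (1.05), db/db replicate 3 (1.69), db/+ replicate 2 (1.65) or db/+ replicate 3 (1.35). Without db/db replicate 1, 37 of 16755 genes were called in all, against 281 in the main fit. Calls over all genes in the other fits without 1 library are not given here. These losses are therefore not read as particular to *Ogn* or *Aspn*.

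In STZ-HFD discs, 4 of the 10 members were called lower than in Con+Veh and 0 higher, where 2.61% of all genes tested were called, 1.31% lower and 1.3% higher. At an unadjusted p under 0.05, limma counted 5 of the 10 members and 17.9% of all genes. The members called were *Dcn*, *Fmod*, *Prelp* and *Ogn*, which are 3 of the 4 abundant members and 1 of the chromosome 13 cluster. All 10 log2 fold changes of the weighted limma fit were below 0, with a median of -0.91 against -0.04 over all genes. That sign did not hold for *Epyc*, whose mean was 1.40 CPM in STZ-HFD and 0.313 in Con+Veh and whose log2 fold change was 2.09 in edgeR and 2.15 in DESeq2, nor for *Kera*, at 0.14 in voom without weights. The libraries of the groups did not overlap, with STZ-HFD lower, for 3 members, as for 2.77% of all genes.

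*Dcn* was at 333, 750, 1116 and 984 CPM in the Con+Veh libraries (replicates 1 to 4) and at 222, 307, 312 and 347 CPM in the STZ-HFD libraries. Only Con+Veh replicate 1 reached into the range of STZ-HFD. *Dcn* fell by 1.65 on the log2 scale (SE 0.26, limma BH-adjusted p = 0.00458), 3.15-fold lower on the fitted scale. *Fmod* was at 314, 292, 556 and 601 CPM in Con+Veh and at 121, 212, 141 and 227 CPM in STZ-HFD. The groups did not overlap, and *Fmod* fell by 1.58 on the log2 scale (SE 0.26, limma BH-adjusted p = 0.00567).

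*Prelp* was at 214, 359, 417 and 415 CPM in Con+Veh and at 109, 122, 167 and 166 CPM in STZ-HFD, without overlap. *Prelp* fell by 1.40 on the log2 scale (SE 0.24, limma BH-adjusted p = 0.00699). *Ogn* was at 27.5, 45.3, 48.4 and 44.2 CPM in Con+Veh and at 25.6, 16.1, 18.7 and 23.1 CPM in STZ-HFD. The nearest libraries, at 27.5 and 25.6, did not cross, and *Ogn* fell by 1.16 on the log2 scale (SE 0.23, limma BH-adjusted p = 0.0142).

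*Bgn* was at 452, 766, 1056 and 1054 CPM in Con+Veh and at 432, 573, 484 and 692 CPM in STZ-HFD. The groups overlapped and the log2 fold change of -0.82 (SE 0.24, limma BH-adjusted p = 0.0673) did not pass the test. *Aspn* was at 30.9, 49.2, 63.4 and 50.6 CPM in Con+Veh and at 30.3, 43.0, 51.7 and 44.1 CPM in STZ-HFD, with an interval of the log2 fold change from -0.89 to 0.28. *Lum* was at 9.16, 15.4, 19.3 and 18.7 CPM in Con+Veh and at 10.2, 15.6, 15.2 and 15.4 CPM in STZ-HFD, with an interval from -0.82 to 0.28. The intervals of both *Aspn* and *Lum* reached from a decrease of that size to a small increase, and their groups overlapped nearly throughout.

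*Omd* was at 1.68, 4.28, 3.37 and 6.11 CPM in Con+Veh and at 2.62, 1.06, 1.17 and 3.79 CPM in STZ-HFD, with an interval from -2.03 to 0.03. *Epyc* was at 0.324, 0.537, 0.28 and 0.108 CPM in Con+Veh and at 4.46, 0.752, 0.0309 and 0.355 CPM in STZ-HFD, where STZ-HFD replicate 1 held 109 counts and replicate 3 held 1. *Kera* was at 0.27, 0.372, 1.73 and 0.432 CPM in Con+Veh and at 1.35, 0.205, 0.556 and 0.473 CPM in STZ-HFD. Neither was called in the weighted limma fit, where their intervals were -2.54 to 2.11 and -3.42 to 1.89. With the muscle score as a covariate *Kera* was called lower, at -4.55 (limma BH-adjusted p = 0.0283). Its measured means, 0.701 CPM in Con+Veh and 0.646 in STZ-HFD, show no change of that size.

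**Figure D3:**
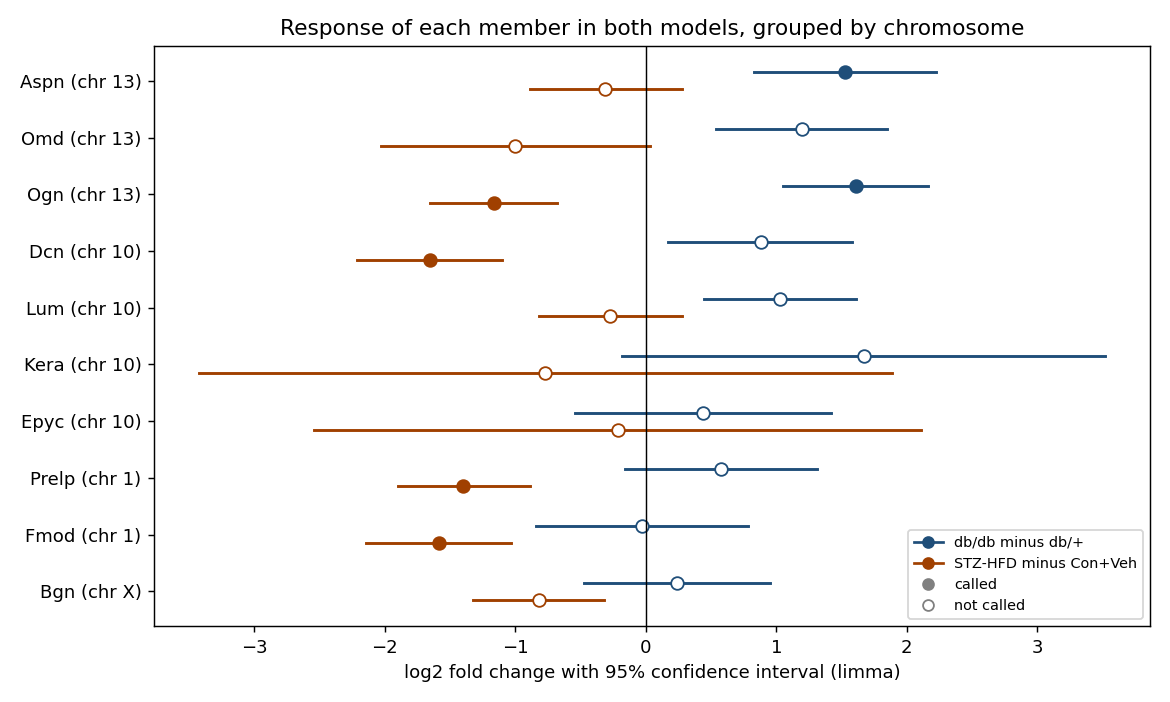
Log2 fold change of each member with its 95% confidence interval (limma), for db/db minus db/+ (blue) and STZ-HFD minus Con+Veh (brown), ordered by chromosome, with filled points for members called. *Ogn* is called in both models and in opposite directions, at 1.61 and -1.16.

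The STZ-HFD calls depended on single libraries and on the test. Without Con+Veh replicate 3, Con+Veh replicate 4 or STZ-HFD replicate 3, 0 of the 10 members were called by limma, with log2 fold changes of -1.37, -1.58 and -1.67 for *Dcn* (BH-adjusted p of 0.179, 0.0733 and 0.0644) and of -1.45, -1.42 and -1.42 for *Fmod*, and 4, 5 and 5 members had an unadjusted p under 0.05. The calls over all genes also dropped in these fits, from 441 to 17, 18 and 18, and 8.55%, 11.6% and 9.35% of all genes had an unadjusted p under 0.05. By the quasi-likelihood test of edgeR, 0 members and 29 of 16915 genes were called. At an unadjusted p under 0.05 it counted 5 members, 4 lower and 1 higher (*Epyc*, 2.09), and 2136 genes. DESeq2 called 3 members (*Dcn*, *Fmod* and *Prelp*) among 272 genes (1.61%) and also placed *Epyc* higher, at 2.15 (adjusted p = 0.202). The plot of alternative settings shows the spread of these values.

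**Figure D4:**
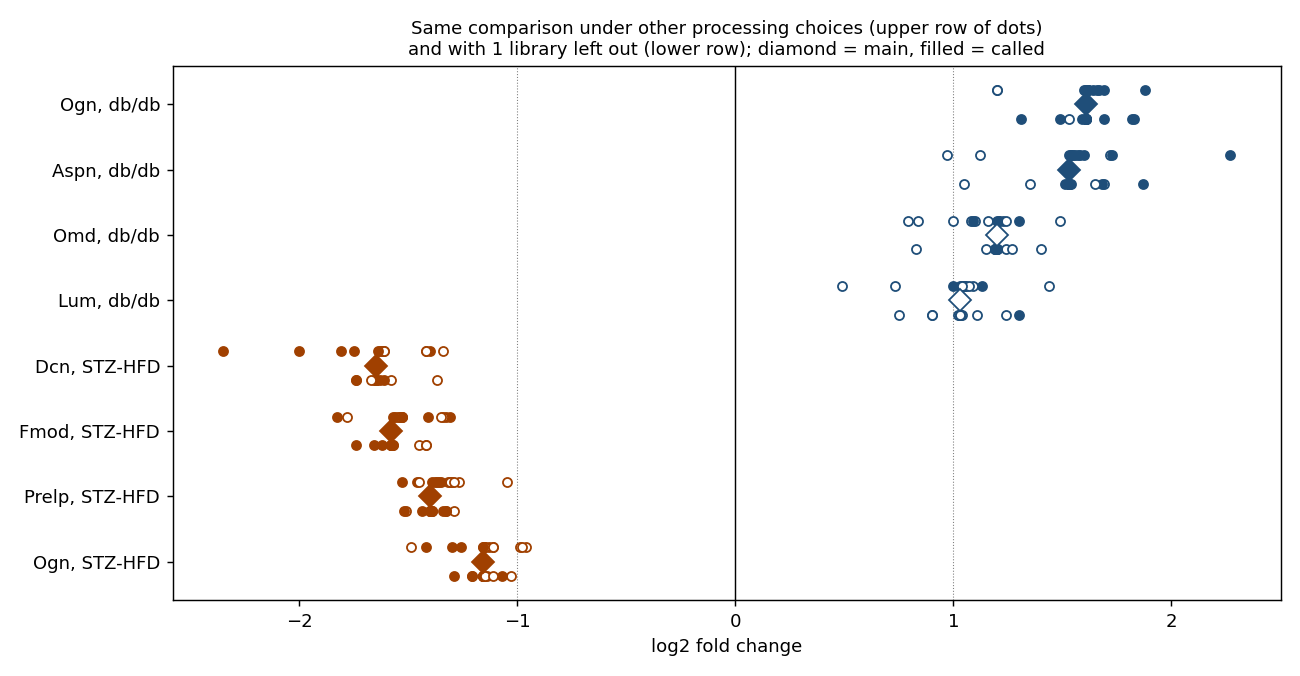
Log2 fold change of 8 member comparisons under the main processing (diamonds), under other processing choices (upper dots) and with 1 library left out (lower dots), filled where called and with dotted lines at log2 fold changes of -1 and 1. *Ogn* in db/db ranges from 1.20 to 1.88 and *Dcn* in STZ-HFD from -2.35 to -1.34, and no value of the 8 crosses 0.

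Markers of other tissues moved beside the STZ-HFD results. Of 8 cartilage markers, 5 (*Acan*, *Col2a1*, *Sox9*, *Comp* and *Hapln1*) were called lower, and the summed level was 1417 to 3373 CPM in Con+Veh and 627 to 1332 CPM in STZ-HFD, without overlap. Of 10 skeletal muscle markers, 4 (*Acta1*, *Myh1*, *Tnni2* and *Pvalb*) were called higher, with sums of 8907 to 11298 CPM in Con+Veh and 9359 to 25191 CPM in STZ-HFD. Of 6 annulus fibrosus and tendon markers, *Mkx* and *Fbln1* were called lower, with sums of 256 to 455 CPM and 191 to 382 CPM, and the 5 fibroblast markers summed to 164 to 272 CPM and 148 to 265 CPM. No marker of these 4 lists was at 0. Of 7 macrophage markers, 4 were called lower, with sums of 134 to 288 CPM in Con+Veh and 94.7 to 173 CPM in STZ-HFD. Of 7 osteoblast and osteocyte markers, *Alpl* and *Ibsp* were called lower, with sums of 145 to 391 CPM and 109 to 263 CPM, and of 8 adipocyte markers *Pck1* was called higher, with sums of 324 to 820.0 CPM and 676 to 861 CPM. With the muscle score as a covariate, *Dcn* stood at -2.35 (adjusted p = 0.00671), *Ogn* at -1.49 (adjusted p = 0.0551), *Fmod* at -1.78 (adjusted p = 0.0555) and *Prelp* at -1.05 (limma BH-adjusted p = 0.203). With the adipocyte score *Dcn* stood at -2.0 (adjusted p = 0.016) and *Ogn* at -1.42 (limma BH-adjusted p = 0.0311). *Fmod* at -1.54 (adjusted p = 0.0642) and *Prelp* at -1.45 (limma BH-adjusted p = 0.0608) were not called. In the main fit *Dcn* stood at -1.65, *Fmod* at -1.58, *Prelp* at -1.40 and *Ogn* at -1.16. Over all genes the muscle score fit called 332 and the adipocyte score fit 193, against 441 in the main fit. The part of cartilage, bone and macrophages in the result was not tested.

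Within a library, the ratio of 2 members does not depend on scaling. Of the 45 count ratios among the 10 members, 10 did not overlap between Con+Veh and STZ-HFD and 8 did not overlap between db/+ and db/db. Over every pair of the genes tested, 4.69% of such ratios did not overlap in the STZ-HFD comparison and 24.4% in the db comparison, so the members' count in db was not above the background. The ratios share members and libraries. They were examined after the values were seen and have no test. In the STZ-HFD comparison 9 of the 10 set *Bgn*, *Aspn* or *Lum* against *Dcn*, *Fmod* or *Prelp*, and the other was *Bgn* to *Lum*. *Bgn* to *Fmod* was 1.44 to 2.63 in Con+Veh and 2.7 to 3.57 in STZ-HFD, and *Bgn* to *Dcn* 0.946 to 1.36 and 1.55 to 1.99. *Aspn* to *Fmod* was 0.0842 to 0.169 in Con+Veh and 0.195 to 0.368 in STZ-HFD, and *Lum* to *Prelp* 0.0428 to 0.0462 and 0.0909 to 0.128. *Ogn* to *Bgn* (0.042 to 0.061 and 0.0281 to 0.0591) and *Ogn* to *Aspn* (0.763 to 0.921 and 0.362 to 0.843) overlapped.

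In the db comparison *Ogn* entered 4 of the 8 ratios and *Aspn* 3, and the other was *Epyc* to *Omd*. *Ogn* to *Bgn* was 0.00584 to 0.0108 in db/+ and 0.0111 to 0.0445 in db/db, and *Lum* to *Ogn* 1.12 to 1.31 and 0.786 to 0.819. *Aspn* to *Dcn* was 0.0424 to 0.0465 in db/+ and 0.0521 to 0.0918 in db/db, while *Aspn* to *Fmod* (0.00785 to 0.0191 and 0.0176 to 0.0772) overlapped. As shares of the summed level per length, *Bgn* took 23.6% to 25.7% in Con+Veh and 30.8% to 35.1% in STZ-HFD, *Aspn* 3.13% to 4.28% and 5.79% to 8.51%, and *Lum* 1.11% to 1.29% and 1.95% to 2.41%. The shares of *Dcn* (18.2% to 27.2% and 18.4% to 20.7%), *Fmod* (18.1% to 30.2% and 16.5% to 23.2%) and *Prelp* (16.4% to 20.3% and 12.2% to 17.9%) overlapped.

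**Figure D5:**
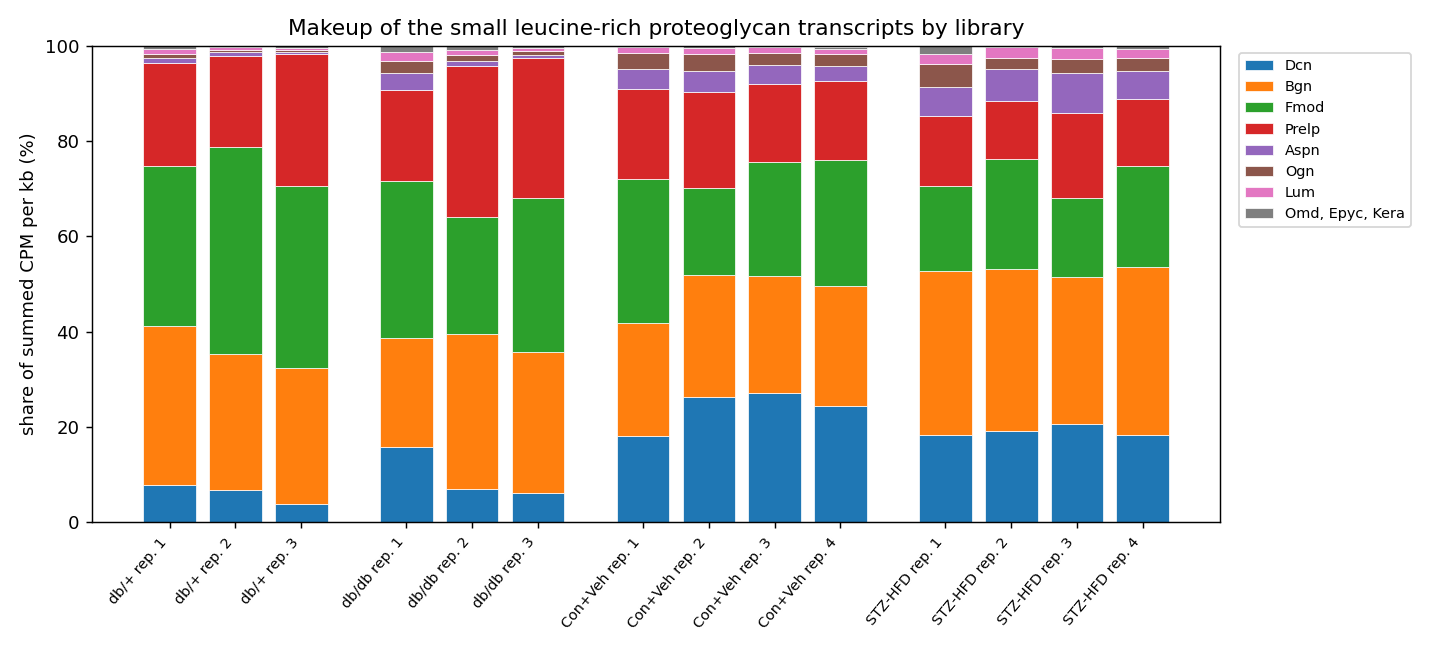
Share of each member in the summed CPM per kb of exon of the 10 members, in percent, 1 bar per library in 4 groups. *Dcn* takes 3.77% to 15.7% in the db groups and 18.2% to 27.2% in the other cohort, and *Bgn* takes more in each STZ-HFD library (30.8% to 35.1%) than in any Con+Veh library (23.6% to 25.7%).

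Whether the members responded differently in the 2 models was tested as the difference of the log2 fold changes, db/db minus db/+ less STZ-HFD minus Con+Veh. Here 4 of the 10 members were called higher and 0 lower, against 0.816% and 0.952% of all genes (1.77% in either direction). At an unadjusted p under 0.05, limma counted 8 of the 10 members and 17.3% of all genes. *Ogn* differed by 2.77 (SE 0.35, BH-adjusted p = 0.0023), *Dcn* by 2.53 (SE 0.42, BH-adjusted p = 0.0176), *Prelp* by 1.97 (SE 0.42, BH-adjusted p = 0.0308) and *Aspn* by 1.84 (SE 0.43, BH-adjusted p = 0.0396), all by limma. *Omd* differed by 2.20 (adjusted p = 0.0599), *Lum* by 1.30 (adjusted p = 0.0858) and *Fmod* by 1.56 (limma BH-adjusted p = 0.0926), which did not pass. In 9 members the limma estimate was above 0 in db/db and below 0 in STZ-HFD, as in 23% of all genes. Among the 9 was *Epyc*, whose sign in STZ-HFD turned in edgeR and DESeq2 and whose difference between the models was 0.66 in limma, -1.63 in edgeR and -1.67 in DESeq2. With the muscle score as a covariate the difference of *Kera* was called, at 9.53 (limma BH-adjusted p = 0.0161). The measured levels show no difference of that size. The means of *Kera* were 0.727 CPM in db/+, 3.29 in db/db, 0.701 in Con+Veh and 0.646 in STZ-HFD.

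The *Ogn* difference was called in each of 14 fits without 1 library and in each of 13 other settings, at 2.47 to 3.37 and an adjusted p of up to 0.049 (BH-adjusted, in limma, edgeR or DESeq2). The *Dcn* difference was called in 13 of 14 fits without 1 library and lost without Con+Veh replicate 3 (2.25, limma BH-adjusted p = 0.117). *Prelp* was called in 7 of these 14 fits, at 1.57 to 2.32, and *Aspn* in 4, at 1.36 to 2.17. *Prelp* was lost without db/db replicates 2 or 3, db/+ replicates 1 or 2, Con+Veh replicates 3 or 4, or STZ-HFD replicate 3. Of the 14 fits, *Aspn* was called only in those without db/db replicate 2, Con+Veh replicates 1 or 2, or STZ-HFD replicate 1. Under the other settings the *Dcn* difference was called in 9 of 12 (2.26 to 3.77, adjusted p up to 0.167), *Prelp* in 6 of 13 (1.03 to 2.10, adjusted p up to 0.443) and *Aspn* in 4 of 12 (1.57 to 3.46, adjusted p up to 0.206), BH-adjusted in limma, edgeR or DESeq2. *Dcn* was lost with the quasi-likelihood test of edgeR, voom without weights and the adipocyte score.

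Pairs of members varied together to different degrees, given as Pearson's r of log2 CPM within the 6 libraries of the db cohort and the 8 of the other, where group differences enter and points share their library. *Ogn* with *Aspn* had r of 0.966 in the db cohort and 0.404 in the other, and *Dcn* with *Aspn* 0.951 and 0.746. *Fmod* with *Prelp* had 0.566 and 0.883, and *Dcn* with *Prelp* 0.0717 and 0.962. *Lum* with *Aspn* was high in both, at 0.943 and 0.938. *Bgn* with *Aspn* had -0.0993 and 0.78.

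Over all 14 libraries, the gene tested with the highest r was *Emp1* for *Dcn* (0.955), *Neo1* for *Bgn* (0.981), *Msl3* for *Aspn* (0.91), *Cys1* for *Fmod* (0.98), *Ywhab* for *Lum* (0.93) and *Pax1* for *Prelp* (0.982). It was *Cdkn2aip* for *Kera* (0.795), *Ackr4* for *Omd* (0.957), *Gm45534* for *Epyc* (0.918) and *Ccl9* for *Ogn* (0.913). The next genes after these were *Gm6663* and *Myoc* for *Dcn*, *Enpp1* and *Lgals3bp* for *Bgn*, *Wfdc17* and *Svep1* for *Aspn*, *Col6a1* and *Sec61a1* for *Fmod*, *Chrdl1* and *Tacc1* for *Lum*, and *Cask* and *Crtap* for *Prelp*. For *Kera* they were *Gm12854* and *Tnmd*, for *Omd* *Scrg1* and *Hapln1*, for *Epyc* *2210406O10Rik* and *Luzp2*, and for *Ogn* *Lyz1* and *Slc39a10*. Both cohorts enter these values. *Epyc* with *Gm45534* had r of -0.354 within the 6 libraries of the db cohort, and *Ogn* with *Ccl9*, a chemokine, had 0.974 there and 0.891 within the other 8.

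Among the other SLRPs, 6 of 7 were tested. In STZ-HFD discs 2 were called lower. *Chad* (chondroadherin, an integrin-binding cartilage protein) was at 6921 ± 5088 CPM in Con+Veh (n = 4) and 470.0 ± 166 in STZ-HFD (n = 4), a log2 fold change of -4.26 (limma BH-adjusted p = 9.25e-06). *Ecm2*, the neighbour of *Aspn*, was at 136 ± 24.1 CPM in Con+Veh and 56.6 ± 14.4 in STZ-HFD, a log2 fold change of -1.28 (limma BH-adjusted p = 0.00842). In db/db 0 of the 6 were called by limma, edgeR or DESeq2, with 3 at an unadjusted p under 0.05 in each. *Optc* (opticin) had the largest log2 fold change there, 2.26 (limma BH-adjusted p = 0.0764), at 0.33 ± 0.135 CPM in db/+ and 1.61 ± 0.333 in db/db (n = 3 each). *Podnl1* was at -0.69 (adjusted p = 0.203), *Ecm2* at 0.66 (adjusted p = 0.196) and *Chad* at -0.63 (limma BH-adjusted p = 0.559).

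The enzymes that build the chains were tested next. Chain synthesis starts with a linker made by xylosyltransferases and continues with chondroitin polymerisation and sulfation. Of 15 chondroitin and dermatan sulfate enzymes tested, 4 were called lower in STZ-HFD, which were the uronyl sulfotransferase *Ust* (-1.45), the chondroitin sulfotransferases *Chst11* (-1.38) and *Chst12* (-1.02), and the chain initiator *Csgalnact2* (-1.04). Over 28 alternatives *Ust* ranged from -1.74 to -0.78, *Chst11* from -1.82 to -0.66, *Chst12* from -1.16 to -0.75 and *Csgalnact2* from -1.66 to 0.25. In db/db the epimerase *Dsel* rose (1.21, from 0.80 to 1.51 over alternatives) and the sulfotransferase *Chst3* fell by 1.03 (from -1.34 to -0.42 over alternatives). The median of this list was -0.54 in STZ-HFD and -0.22 in db/db, against -0.04 over all genes in both. edgeR and DESeq2 called 0 of the 15 in either model, with 3 in db/db and 6 in STZ-HFD at an unadjusted p under 0.05 in each. Shares of all genes tested give the background for this list and the other related lists. At an unadjusted p under 0.05 the db/db comparison held 21.1% of them in limma, 11.2% in edgeR and 12.6% in DESeq2. The STZ-HFD comparison held 17.9%, 12.6% and 13.9% in the same order. Under the rule for calls the shares were 1.66%, 0% and 1.25% for db/db, then 2.61%, 0.171% and 1.61% for STZ-HFD. Whether a list exceeded its background was not tested.

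Of 7 linker enzymes, 0 were called in either model by limma. *Xylt1*, which adds the first sugar, had a log2 fold change of -1.17 in STZ-HFD (adjusted p = 0.0553, limma) and -0.41 in db/db, and *Xylt2* had -1.03 and -0.27. The galactosyltransferase *B3galt6* had the largest value in db/db, at 0.63 (limma BH-adjusted p = 0.35). At an unadjusted p under 0.05 limma counted 3 of these enzymes in STZ-HFD and 0 in db/db, and DESeq2 called 1 and 0. Of 7 keratan sulfate enzymes tested, 0 were called by limma, edgeR or DESeq2, with 1 in db/db and 0 in STZ-HFD at an unadjusted p under 0.05 in limma. Their largest values were -0.80 for *Chst5* and 0.68 for *Chst1* in db/db, and -0.99 for *Chst5* and -0.53 for *Chst2* in STZ-HFD, where the means of *Chst2* ran the other way (4.10 ± 3.82 CPM in STZ-HFD and 3.45 ± 0.676 in Con+Veh).

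The collagens that SLRPs bind were called lower in STZ-HFD in 3 of 13 cases. *Col2a1*, the fibrillar collagen of cartilage, fell by 1.84, and the beaded-filament chains *Col6a1* and *Col6a2* fell by 1.33 and 1.32 on the log2 scale in limma. edgeR called 0 of the 13 in STZ-HFD and DESeq2 called 2, with 4 at an unadjusted p under 0.05 in each against 9 in limma. In db/db 0 of the 13 were called by limma, edgeR or DESeq2, with 4 at an unadjusted p under 0.05 in each, and *Col11a2* (-1.17) and *Col6a3* (-1.02) had the largest values. Of 5 genes of propeptide processing, *Pcolce2*, an enhancer of procollagen cleavage, fell by 1.80 in STZ-HFD in limma, where DESeq2 called 1 of the 5 and edgeR 0, with 2 at an unadjusted p under 0.05 in each of the 3 tests. In db/db 0 were called by limma, edgeR or DESeq2, with 0 at an unadjusted p under 0.05, and *Bmp1* had the largest value (-0.49). *Tll2* was near the floor of 3 counts in both db groups, and its fitted value there had an SE of 8.28.

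Of 8 proteases known to cleave SLRPs that were tested, 0 were called in either model by limma, edgeR or DESeq2, with 3 in db/db and 1 in STZ-HFD at an unadjusted p under 0.05 in limma. *Mmp12* (2.19, at 0.746 ± 0.48 CPM in db/db) and *Htra1* (-0.89) had the largest values in db/db, and *Adamts4* (-1.03) and *Mmp14* (-0.69) in STZ-HFD. The means of *Adamts4* ran the other way, at 1.93 ± 1.64 CPM in STZ-HFD and 1.81 ± 0.586 in Con+Veh. Of 17 ligands and receptors bound by SLRPs, the growth factor *Bmp2* rose in db/db, from 7.81 ± 2.81 to 17.4 ± 4.47 CPM (n = 3 each), a log2 fold change of 1.19 (limma BH-adjusted p = 0.039) that ranged from 0.64 to 2.09 over alternatives. edgeR and DESeq2 called 0 of the 17 in db/db, with 3 at an unadjusted p under 0.05 in each. In STZ-HFD 0 of the 17 were called by limma, edgeR or DESeq2, with 5 at an unadjusted p under 0.05 in limma and 3 in the other two, and *Kdr* (-1.81) and *Cd14* (-1.42) had the largest values. Over 28 alternatives *Chad* was called in 27, *Pcolce2* in 23, *Ecm2* in 20, *Col2a1* and *Dsel* in 18, *Chst11*, *Col6a1* and *Col6a2* in 17, *Ust* in 16, *Bmp2* in 15, *Chst3* in 14, *Chst12* in 12 and *Csgalnact2* in 9.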

How the data were processed

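The authors aligned the reads with STAR 2.7.9a1 to the mouse genome (GRCm38, Ensembl release 101) and deposited gene counts from featureCounts 2.0.32 as whole numbers without normalization. Estimated counts per transcript from Salmon 1.5.23, also deposited by the authors, entered 1 alternative, rounded after summing per gene. Versions follow the submitters' processing notes. Of 55774 gene lines, 287 repeated an identifier and were used once, and 55227 of the 55487 genes were found in GENCODE M21, which gave positions and exon lengths.

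CPM were counts scaled by the library total times the TMM factor, and CPM per kb were divided by the exon length. The 16915 genes with over 1 CPM before TMM factors in 3 or more libraries were tested in R 4.3.3 with limma 3.58.1 (voomWithQualityWeights, a mean per group, all 14 libraries in one fit) and edgeR 4.0.16 for TMM factors, as the study's methods name. DESeq2 1.42.0 and edgeR's quasi-likelihood test were alternatives. The tests were tried on simulated data first. Correlations used log2 CPM with a prior count of 2.

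The members and lists were chosen with earlier results of these data known. The genes named were all members, every gene of the related lists called in either model, the 2 with the largest absolute log2 fold change of a list with none called, and the 3 genes most like each member. Up to 2 of the largest values were also given for a list with none called in 1 model only, a choice made after seeing the data. Transcript totals of *Dcn*, *Bgn* and *Aspn* were not used here. Protein sequences, and promoter windows for *Dcn* and *Lum*, were not used here. Per the study's methods each library is a separate mouse.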

Additional observations from a re-analysis of the deposited data

Results flagged for a closer look

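Among the 10 members in the 2 groups of 4 libraries, 20 sets of 4 values in all, a library stood apart from the other 3 in 3 sets, which chance gives in about 1 in 20. The lowest STZ-HFD value of *Lum* was 10.2 CPM, the highest STZ-HFD value of *Epyc* was 4.46 CPM and the highest Con+Veh value of *Kera* was 1.73 CPM. The response differed between the models by the test of the difference for *Ogn* (2.77), *Dcn* (2.53), *Prelp* (1.97) and *Aspn* (1.84) among the members. Of the related genes it differed for *Chad* (3.63), *Bmp2* (1.96), *Ecm2* (1.94), *Pcolce2* (1.84) and *Csgalnact2* (1.56), all on the log2 scale.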

How the results depend on the processing

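Of the member log2 fold changes under alternatives, 694 kept direction and side of the threshold, 84 lost the call, 13 gained it and 28 changed sign; the cause was not tested. In db/db (2 members called), 0 were called with edgeR's quasi-likelihood test, voom without weights, the adipocyte score or the GC trend removed, 4 without a filter, and 0 to 3 with a library left out. In STZ-HFD (4 called), 0 were called with the quasi-likelihood test, voom without weights or no filter. There 2 were called with the muscle score (*Dcn*, *Kera*) or the adipocyte score (*Dcn*, *Ogn*), and 0 to 4 with a library left out. The muscle score fit called 332 and the adipocyte score fit 193 of 16915 genes in STZ-HFD. Apart from the fits without 1 library, the STZ-HFD fold change ranged from -2.35 to -1.34 for *Dcn* and -1.83 to -1.31 for *Fmod*. It ranged from -1.53 to -1.05 for *Prelp* and -1.49 to -0.96 for *Ogn*. Calls over all genes with voom without weights or no filter are not given here. For the difference (4 called), 1 was called with the quasi-likelihood test, voom without weights, transcript totals (of 7 members) or the adipocyte score, 2 without a filter or without both libraries named RIP (Con+Veh replicate 2 and STZ-HFD replicate 4), and 1 to 5 with a library left out. Signs changed for *Fmod* in db/db with the quasi-likelihood test (0.04), DESeq2 (0.07), transcript totals (0.01), the adipocyte score (0.04) and the GC trend removed (0.15), and it ranged from -0.40 to 0.28 with a library left out. With the muscle score *Epyc* (-0.19), *Bgn* (-0.05) and *Prelp* (-0.02) changed sign in db/db, and *Bgn* ranged from -0.11 to 0.51 with a library left out. In STZ-HFD *Epyc* was at 2.09 (quasi-likelihood), 2.15 (DESeq2), 0.34 (voom without weights), 0.60 (muscle), 0.44 (adipocyte) and 0.13 (without RIP), and -0.77 to 1.29 with a library left out, and *Kera* at 0.14 (voom without weights) and -1.0 to 0.32. The *Epyc* difference was -1.63 (quasi-likelihood), -1.67 (DESeq2), -0.80 (muscle) and -0.84 to 1.21. Levels moved by more than 1 SD in 37 of 40 cases with ribosomal RNA genes removed, 25 of 28 from transcript totals and 6 of 40 with the length of the longest transcript, the last chosen after seeing the data. With each model fitted alone, 3 members were called in db/db (*Omd*, at 1.21, beside *Ogn* and *Aspn*) and 4 in STZ-HFD, where *Epyc* and *Kera* were not tested, and the difference between the models could not be fitted. These fits called 436 of 15332 genes in db/db and 287 of 14932 in STZ-HFD.

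Same-numbered samples are different mice and deviated together no more than others (mean correlation -0.091 in the db groups and -0.111 in the other cohort, against 0.0458 and 0.0376 for other pairs). With the replicate number as a block, 3 members were called in db/db, 0 in STZ-HFD (6 at an unadjusted p under 0.05) and 3 in the difference. *Fmod* in db/db was at 0.09. The STZ-HFD fold changes of this fit lie within the ranges given above for the settings with all libraries. Its calls over all genes are not given here, so the drop is not read as particular to the members.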
